A study of Mus musculus with 19 samples.

Results

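Klf1, Klf2 and Klf6 are 3 mouse genes of the Kruppel-like factor (KLF) family. They were followed on every array through the probes whose only gene symbol is Klf1, Klf2 or Klf6. These were 4 of the 20205 probes, and 3 of the 16148 features left after probes of the same gene had been averaged. Klf1 was read by probe 19408 (NM_010635), Klf2 by probe 16777 (NM_008452) and Klf6 by probes 421 and 1985 (both NM_011803). Expression was measured on 19 arrays of 2 colours in FDCPmix, a mouse line of multipotent haematopoietic progenitors that depends on interleukin-3. The labels also call it an ES cell line and explain this no further. In the group called treated, 4 arrays set RNA of treated cells, with no time stated, against RNA of non-treated cells. In the time course, RNA taken 3 h, 7 h and 12 h (4 arrays each) and 23 h (3 arrays) after tamoxifen was set against RNA of treated cells at 0 h. Replicate 2 at 23 h was not analysed here. Tamoxifen is a ligand of the oestrogen receptor; no transgene, Cre or receptor fusion is given in the sources used here, and no group is free of treatment in the time course. Nothing in the labels says whether replicates came from separate cultures, so every p-value measures only the spread between these arrays, which may be technical.

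KLF proteins bind GC-rich and CACCC-type DNA through zinc fingers at their C-terminal end and activate or repress transcription with cofactors such as CBP, CtBP and histone deacetylases. Klf1, also called EKLF, is the erythroid member: it activates adult beta-globin and genes of haem synthesis and of the red cell membrane, and it is needed for definitive erythropoiesis. Klf2 keeps T cells quiescent and is induced in endothelium by flow through the kinases MEK5 and ERK5 and the MEF2 factors. Klf6 is found in many tissues and is quickly induced by serum or injury, like an immediate early gene.

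The 250 bases upstream of each annotated start are shown as a description, and elements further away are not covered. They come from RefSeq (GRCm38.p6, + strand), in which all 3 genes were found, and run 5′ to 3′. Capitals mark matches, on either strand, to GATAAG (the GATA factor site), CCNCNCCC (the CACCC or GC box), CTA and TAG with any 4 bases between (a MEF2-type site), CCAAT and CACGTG (an E-box). Overlapping matches to 1 motif appear as 1 run of capitals, and the motifs were chosen after the sequences were seen.
Klf1, chr8:84901732-84901981: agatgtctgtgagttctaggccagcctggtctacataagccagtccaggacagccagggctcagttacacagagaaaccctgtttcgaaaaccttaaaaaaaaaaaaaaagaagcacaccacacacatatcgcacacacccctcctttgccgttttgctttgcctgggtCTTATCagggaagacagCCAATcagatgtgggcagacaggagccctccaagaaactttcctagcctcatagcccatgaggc
Klf2, chr8:72318812-72319061: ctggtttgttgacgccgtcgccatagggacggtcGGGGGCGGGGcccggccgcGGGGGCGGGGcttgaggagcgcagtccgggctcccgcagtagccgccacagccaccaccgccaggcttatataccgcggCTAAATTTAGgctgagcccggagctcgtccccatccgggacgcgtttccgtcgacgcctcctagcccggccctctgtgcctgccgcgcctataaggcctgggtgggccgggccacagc
Klf6, chr13:5861239-5861488: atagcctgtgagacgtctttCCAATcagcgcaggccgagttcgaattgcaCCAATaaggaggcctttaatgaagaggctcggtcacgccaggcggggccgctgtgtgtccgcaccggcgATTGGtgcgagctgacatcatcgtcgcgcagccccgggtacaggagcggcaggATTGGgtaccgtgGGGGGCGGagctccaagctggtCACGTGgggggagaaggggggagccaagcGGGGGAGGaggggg

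The Klf1 window held 1 GATA match on the reverse strand, 81 to 76 bases before the start, and 1 CCAAT match 64 to 60 bases before it. A GATA match was present in 6.55% of the 32851 windows of this length. The Klf2 window held 4 matches to the CACCC and GC box, in overlapping pairs, and 1 MEF2-type match 118 to 109 bases before the start. The MEF2-type letters were in 3.2% of windows and the CACCC and GC box in 45.9%. The Klf6 window held 4 CCAAT matches, 2 matches to the CACCC and GC box and 1 E-box 43 to 38 bases before the start. CCAAT was in 33.8% of windows and the E-box in 6.02%. A match describes these letters and is no evidence of binding.

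The values below are deposited log ratios, read as log2, each array centred on its median. A ratio below 0 means less of the transcript in the treated RNA than in its reference, if the treated RNA is the numerator, which no label states. That direction was assumed. The basis is a repeated extreme value near 16 to 17 in size on 8 to 29 spots of each array, whose sign follows the dye of the treated RNA (above 0 for Cy5, below 0 for Cy3) on all arrays but 7 h replicate 4. Without knowing which channel was at its floor, this bears on whether arrays of both dyes run the same way, and not on which RNA is the numerator. A second reading, in which arrays with the treated RNA in Cy3 have their sign changed, is given beside the main results. A further array also stood apart: 23 h replicate 3 had a deposited median of 0.233, against a range of -0.012 to 0.024 on the others. Its repeated extreme value, -16.61, followed the dye, so the sign of that value did not single out this array. Ratios give no absolute level, so the expression of a gene, or the cell type from its markers, could not be read from them. In bulk RNA, fewer cells of a type and less RNA per cell cannot be told apart.

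Klf6 was lower at 12 h than at 0 h on all 4 arrays, and more so on probe 421 than on probe 1985, but it did not pass the test over all features. The ratio of the gene, as the mean of its probes, was -0.40 ± 0.070 (SD, n = 4) at 12 h. It was -0.18 ± 0.16 at 3 h (n = 4), -0.25 ± 0.27 at 7 h (n = 4) and -0.13 ± 0.23 at 23 h (n = 3). With limma and Benjamini-Hochberg adjustment over all 16083 features, the 12 h estimate was -0.40 (SE 0.097, 95% interval -0.61 to -0.19, adjusted p = 0.525). It ranked 41 by p among those features.

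Probe 421 carried most of the Klf6 signal. At 12 h it read -0.52, -0.57, -0.54 and -0.83 on replicates 1 to 4. At 3 h it read -0.10, -0.37, -0.33 and -0.22. At both times every array was below 0 (10.6% of probes at 3 h and 6.97% at 12 h), and the groups did not overlap, the 12 h arrays all being lower; 3.59% of probes separated in this way. At 7 h the probe read -0.45, -0.685, -0.63 and 0.33, so that replicate 4 was high and alone above 0. At 23 h it read -0.725, 0.46 and -0.18 on replicates 1, 3 and 4, with replicate 3 alone above 0. These exceptions are the same arrays that stood apart by their extreme value or their median. Of the 19552 probes with values on all time course arrays, 99 were below 0 on the other 13 (0.505% of those with values on these 13), and 92 of these, probe 421 included, were above 0 on both arrays that stood apart (0.471%). In the reverse direction, 40 probes were above 0 on those 13 arrays, of which 34 were below 0 on both. With the Cy3 signs changed, 32 probes were below 0 on those 13 arrays and 2 of them above 0 on both others.

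Probe 1985 moved less. At 12 h it read -0.17, -0.22, -0.16 and -0.16, and at 7 h -0.076, -0.16, -0.26 and -0.043. Every array was below 0 at both times, as were 6.97% and 6.63% of all probes at 12 h and 7 h, and the groups overlapped. At 3 h it read 0.20, -0.034, -0.17 and -0.43, and at 23 h 0.096, -0.20 and -0.20, with replicate 1 above 0 at both. The 12 h estimates of the 2 probes were -0.61 (SE 0.16) for 421 and -0.18 (SE 0.075) for 1985, with adjusted p = 0.649 and 0.761 in the limma fit over all probes (0.0249% of probes called). Probe 421 was lower than probe 1985 on 11 of the 15 time course arrays, and their Spearman correlation there was -0.03. The probes share every array and the same listed accession, so they are not replicates of each other.

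**Figure D1:**
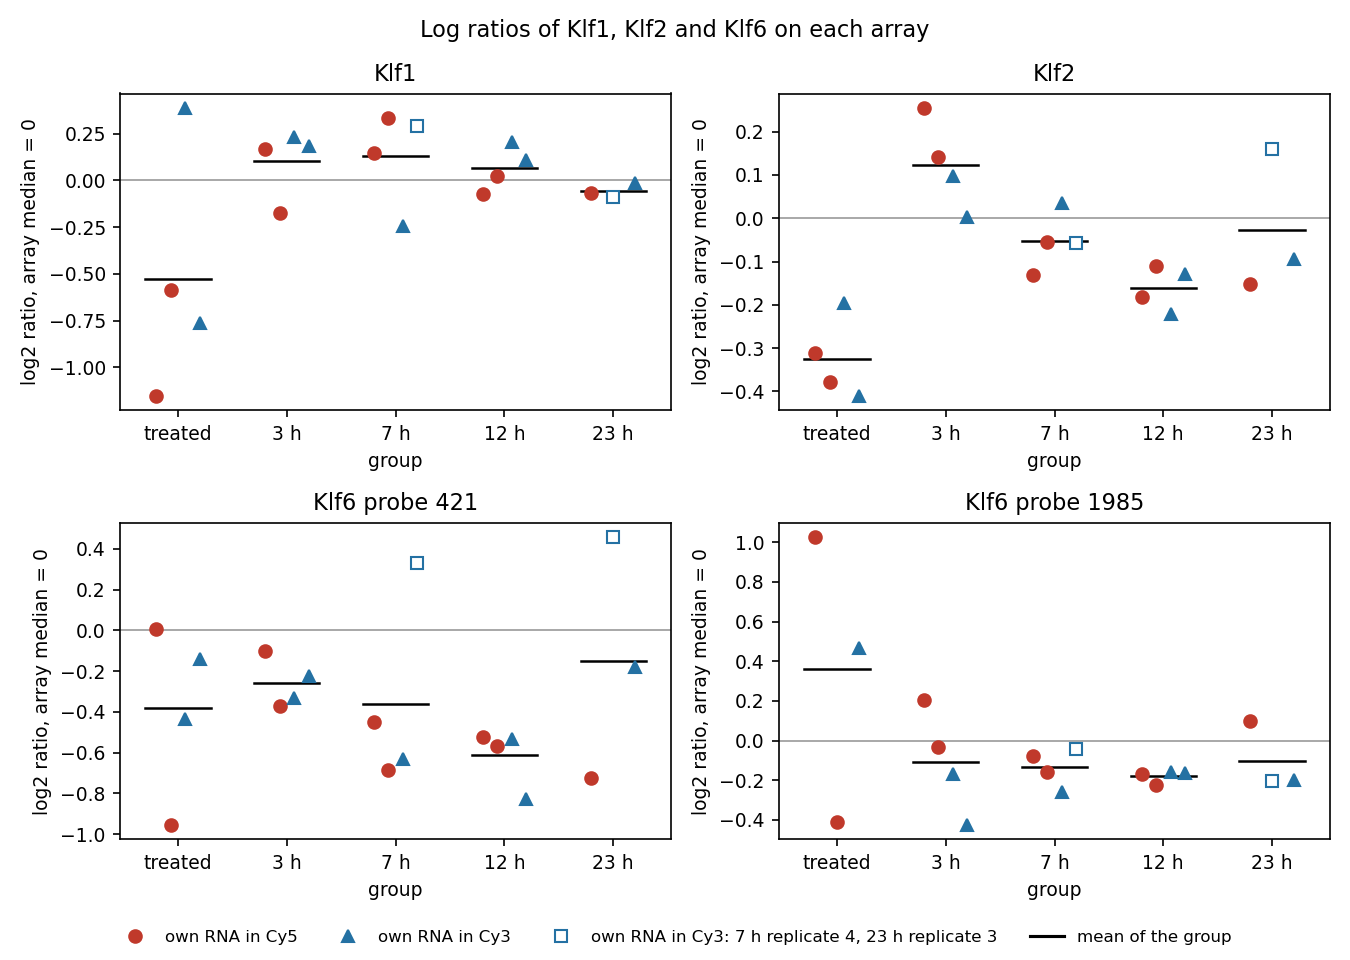
Log2 ratio of each Klf probe (vertical axes) on every array by group (horizontal axes), with symbols for the dye of the RNA under study (own RNA), squares for the 2 arrays that stood apart and bars for group means. Probe 421 of Klf6 lies between -0.83 and -0.52 at 12 h, while 7 h replicate 4 and 23 h replicate 3 lie above 0 at 0.33 and 0.46.

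Without these 2 arrays, Klf6 passed the test at both 7 h and 12 h. The 7 h estimate was then -0.39 (SE 0.072, adjusted p = 0.0487 by limma) and the 12 h estimate -0.40 (SE 0.061, adjusted p = 0.0257 by limma), and all 3 remaining 7 h arrays and all 4 at 12 h were below 0. No 12 h array was left out, so the 12 h estimate did not change. Its SE fell from 0.097 to 0.061 because all times share 1 estimate of the spread. The 2 arrays left out held the highest Klf6 values of the time course, 0.14 and 0.13. In the same fit 0.466% of features were called at 7 h and 0.268% at 12 h. Probe 421 alone gave -0.59 (SE 0.11) at 7 h and -0.61 (SE 0.090) at 12 h, with adjusted p = 0.0442 and 0.0166 by limma, against 0.507% and 0.279% of probes called. At 23 h Klf6 gave -0.25 (SE 0.087, adjusted p = 0.387 by limma) from 2 arrays. With the signs of both arrays turned, a setting chosen after seeing the data, Klf6 was -0.32 at 7 h and -0.40 at 12 h, with adjusted p = 0.0392 and 0.0253 by limma and 1.26% and 0.379% of features called. Probe 421 was -0.52 and -0.61 there, with adjusted p = 0.0103 and 0.00592 by limma and 1.2% and 0.418% of probes called. Probe 1985 was not called at 7 h or 12 h in either setting. It was below 0 on both arrays that stood apart, at -0.043 and -0.20. The calls of the Klf6 gene are therefore matched by only 1 of its 2 probes. For the Klf6 gene, leaving out 7 h replicate 4 alone gave -0.38 and adjusted p = 0.177 at 7 h by limma, which is not a call. These calls rest on the deposited signs: with the Cy3 signs changed, the 12 h estimate of Klf6 was 0.026.

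**Figure D2:**
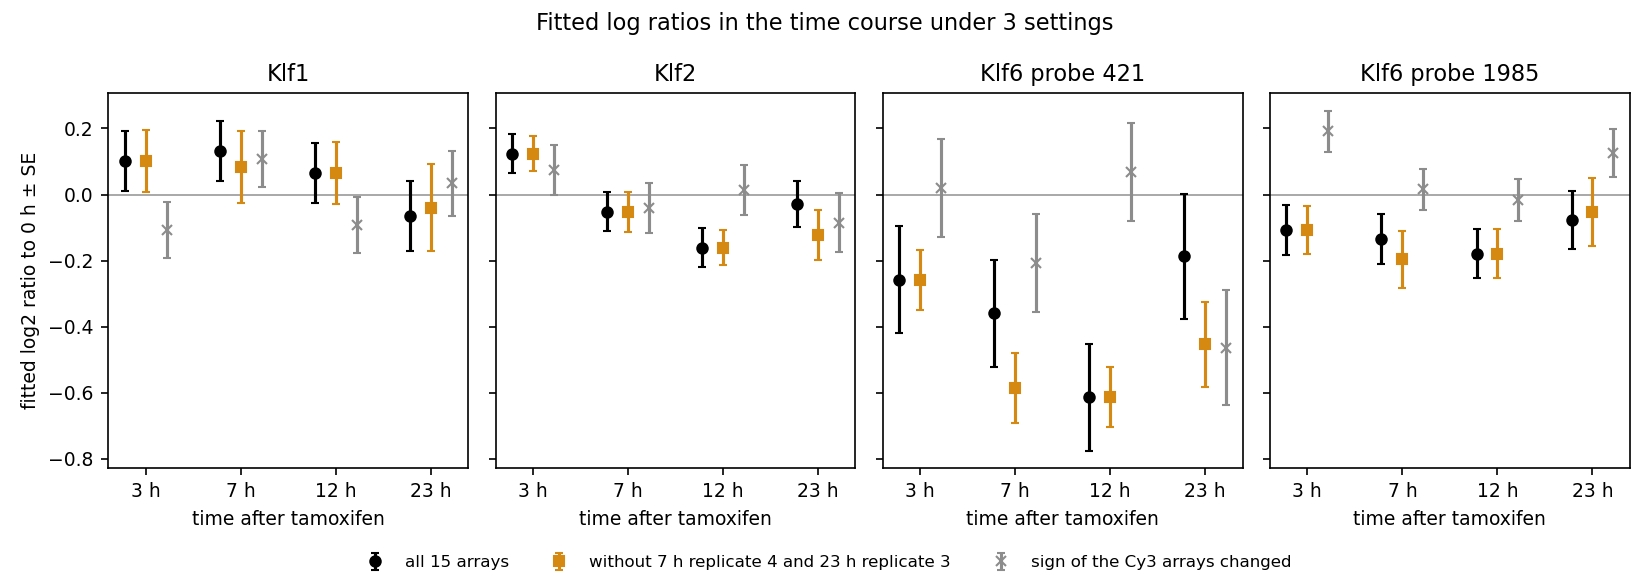
Fitted log2 ratio to 0 h, with its SE as bars (vertical axes), of Klf1, Klf2 and each Klf6 probe at each time (horizontal axes), for all 15 arrays, for those left without 7 h replicate 4 and 23 h replicate 3, and for Cy3 arrays with changed sign. The 12 h value of probe 421 is -0.61 with and without those arrays and 0.069 in the reading with changed signs.

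In the treated arrays the fitted values of the Klf6 probes had opposite signs. On single arrays the probes lay on opposite sides of 0 only on replicate 3. Probe 421 read 0.008, -0.96, -0.44 and -0.14 on replicates 1 to 4. Probe 1985 read 1.025, -0.41 and 0.465 on replicates 1 to 3 and had no value on replicate 4, where the gene's value is that of probe 421 alone. The fitted values were -0.38 (SE 0.20) for probe 421 and 0.39 (SE 0.39) for probe 1985, with adjusted p = 0.789 and 0.849 by limma. Probe 421 ranged from -0.62 without replicate 1 to -0.14 without replicate 2. On the 3 arrays that read both, probe 421 minus probe 1985 was -1.017, -0.543 and -0.901. The Klf6 gene, fitted over all 4 arrays with replicate 4 from probe 421 alone, came to -0.074 (SE 0.23, 95% interval -0.73 to 0.58, adjusted p = 0.95 by limma). This gene value ranged from -0.37 without replicate 1 to 0.23 without replicate 2.

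Klf2 was above 0 on every array at 3 h and below 0 on every array at 12 h, as were 11.1% and 7.01% of features at these times. It read 0.255, 0.14, 0.097 and 0.003 at 3 h. At 12 h it read -0.18, -0.11, -0.22 and -0.13. The 12 h arrays were all lower than the 3 h arrays, as were those of 3.47% of features. The difference, 12 h minus 3 h, was -0.285 (SE 0.084, 95% interval -0.47 to -0.10), with adjusted p = 0.44 by limma, and no feature was called in that contrast (percent called 0, with 1653 features at an unadjusted p under 0.05). Between them, at 7 h, Klf2 read -0.13, -0.055, 0.036 and -0.057, near 0 on both sides. At 23 h it read -0.15, 0.16 and -0.093, and the high array was again replicate 3. The group values were 0.12 ± 0.10 at 3 h, -0.052 ± 0.068 at 7 h, -0.16 ± 0.051 at 12 h (SD, n = 4 each) and -0.028 ± 0.17 at 23 h (SD, n = 3). The estimates at 3 h and 12 h had adjusted p = 0.469 and 0.704 by limma. With the Cy3 signs changed, the 12 h estimate was 0.014.

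In the treated arrays Klf2 was also below 0 throughout, with -0.31, -0.38, -0.20 and -0.41 on replicates 1 to 4. The mean was -0.32 ± 0.095 (SD, n = 4), and it was -0.35 over the arrays with treated RNA in Cy5 and -0.30 over those in Cy3. Of all features, 7.59% were below 0 on each treated array. The fit of the treated arrays alone gave SE 0.10, a 95% interval of -0.61 to -0.040 and adjusted p = 0.793 by limma. In 1 fit of all 19 arrays, where the treated arrays take their spread from the tighter time course, the same value had SE 0.06 and adjusted p = 0.0121 by limma, beside 4.86% of features called. Because the dyes gave like values under the deposited signs, changing the Cy3 signs left -0.021.

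Klf1 had the lowest mean of the 3 genes on the treated arrays and also the widest spread. It read -1.152, -0.585, 0.387 and -0.762 on replicates 1 to 4, so 3 arrays were well below 0 and replicate 3 was above it. The mean was -0.53 ± 0.65 (SD, n = 4). The limma fit gave -0.53 (SE 0.25, 95% interval -1.21 to 0.15, adjusted p = 0.803), and the estimate ran from -0.82 without replicate 3 to -0.24 without replicate 4. With the Cy3 signs changed it was -0.34.

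In the time course Klf1 was not called at any time. It read 0.17, -0.18, 0.23 and 0.18 at 3 h, with replicate 2 low. At 7 h it read 0.14, 0.33, -0.24 and 0.29, with replicate 3 low, and at 12 h -0.072, 0.021, 0.20 and 0.11. At 23 h all 3 arrays were just below 0, at -0.067, -0.087 and -0.012, as were 9.42% of features. The estimates were 0.10 at 3 h, 0.13 at 7 h, 0.066 at 12 h and -0.064 at 23 h, with SE 0.090, 0.090, 0.090 and 0.11. Their 95% intervals all held 0: -0.093 to 0.30 at 3 h, -0.063 to 0.33 at 7 h, -0.13 to 0.26 at 12 h and -0.29 to 0.16 at 23 h. Single arrays moved these estimates. The 3 h value was 0.19 without replicate 2, and the 7 h value was 0.28 without replicate 3 (adjusted p = 0.327 by limma) and 0.048 without replicate 2.

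No member was called in any of the 5 comparisons with a reference at an adjusted p under 0.05 by limma. The share of all features called was 0.0187% at 12 h (3 of 16083) and 0 in each of the other 4 comparisons. At an unadjusted p under 0.05 there were 988 features in the treated arrays and 1738, 1140, 1000 and 539 at 3 h, 7 h, 12 h and 23 h. At that looser mark Klf2 was lower in the treated arrays (3.1% of features were), Klf6 at 7 h (3.62%) and both Klf2 and Klf6 at 12 h (2.84%).

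By fitted ratio, the times ran from 7 h (highest) through 3 h and 12 h to 23 h for Klf1. For Klf2 the order was 3 h, 23 h, 7 h and 12 h, and for Klf6 it was 23 h, 3 h, 7 h and 12 h. No neighbours in these orders differed by the test, and none of the 6 pairs of times had any called feature (percent called 0). As the mean of its probes, Klf6 was nevertheless lower on all 12 h arrays than on those of 3 h and of 23 h. Of all features, 3.47% and 2.06% matched this. Neither probe alone separated 12 h from 23 h. Probe 421 ran from -0.83 to -0.52 at 12 h and from -0.725 to 0.46 at 23 h. Probe 1985 ran from -0.22 to -0.16 and from -0.20 to 0.096. Only probe 421 separated 12 h from 3 h. For Klf6 the 12 h minus 3 h difference was -0.21 (95% interval -0.51 to 0.084, adjusted p = 0.577 by limma). The 23 h minus 12 h difference was 0.26 (95% interval -0.059 to 0.59, adjusted p = 0.9999 by limma). For Klf1 the widest difference was 23 h minus 7 h, -0.20 (95% interval -0.50 to 0.10). All times were set against 0 h RNA, and whether that was the same RNA on each array is not given.

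Of 23 other KLF and SP genes listed, 10 were measured, and none was called in any comparison. The list's median was -0.11 in the treated arrays (7 of 9 tested below 0, against a median of 0.009 over all features), -0.058 at 3 h (7 of 10), -0.059 at 7 h (8 of 10), 0.047 at 12 h (4 of 10) and 0.034 at 23 h (3 of 10). At 12 h, when Klf2 and Klf6 were below 0, Klf7 and Klf17 were the members with the smallest p and lay above 0. Klf7, which is best known from the nervous system, was 0.24 (SE 0.067, adjusted p = 0.611 by limma) and Klf17 was 0.23 (SE 0.10, adjusted p = 0.788 by limma). Klf4, a regulator of monocytes and a reprogramming factor, was 0.049 at 23 h and between -0.15 and -0.039 at the earlier times. Klf3, a repressor that recruits CtBP and is itself a Klf1 target, lay between 0.001 and 0.073 in the time course. Klf9, known for its induction by glucocorticoids, was 0.16 at 3 h and -0.10 at 7 h, and Klf16 was -0.17 at 3 h and 0.087 at 12 h. Klf5 lay between -0.12 at 12 h and 0.12 at 23 h, and Klf13 between -0.089 and 0.024. In the treated arrays, Klf17 was -0.43 (n = 3) and Klf16, Klf4 and Klf7 were -0.22, -0.23 and -0.20.

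**Figure D3:**
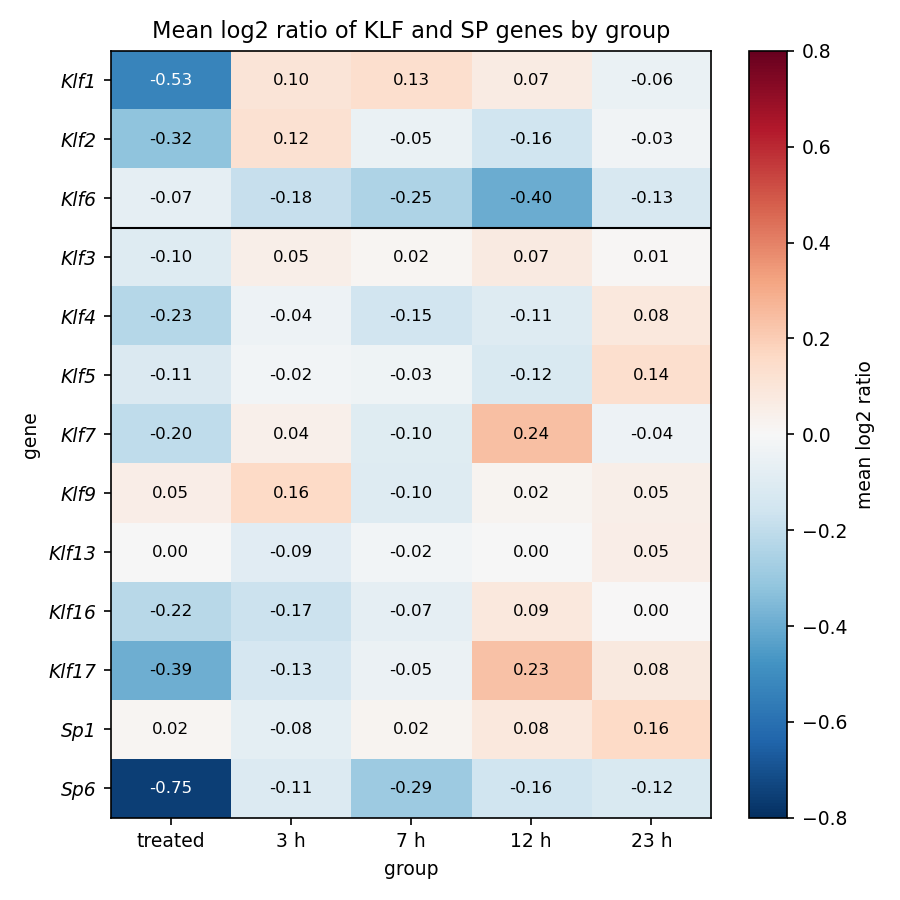
Mean log2 ratio over the arrays of a group (colour and printed value; horizontal axis, group) of each measured KLF and SP gene (vertical axis). Klf6 goes down to -0.40 at 12 h, where Klf7 and Klf17 stand at 0.24 and 0.23, and the treated value of Sp6 is the mean of only 2 arrays and was not tested.

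Genes tied to each factor were read as lists, and no listed gene was called. Of 27 erythroid targets of Klf1, 14 were measured, with a median of -0.029 in the treated arrays (8 below 0) and 0.050, -0.022, 0.019 and -0.011 at 3 h, 7 h, 12 h and 23 h. Hba-a1, an alpha-globin gene, was -0.28 at 3 h and -0.27 at 7 h (adjusted p = 0.431 and 0.658 by limma). At 12 h, Alas2, the erythroid enzyme of haem synthesis, was 0.31 and Nfe2, a factor of erythroid and megakaryocytic cells, was -0.23 (adjusted p = 0.82 and 0.689 by limma). In the treated arrays, where Klf1 was lowest, the targets nearest the threshold were Dmtn at 0.36 and Slc4a1, the red cell anion exchanger, at -0.26, on opposite sides of 0.

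Of 16 quiescence and Klf2-linked genes, 10 were measured, with medians of -0.049 in the treated arrays and -0.053, -0.042, -0.054 and -0.003 at 3 h, 7 h, 12 h and 23 h. Cdkn1a, which encodes the cell cycle inhibitor p21, was -0.50 in the treated arrays (SE 0.13, adjusted p = 0.793 by limma) and -0.35 at 3 h (SE 0.12, adjusted p = 0.425 by limma), where Klf2 was above 0. Foxp1, another quiescence factor, was 0.16 at 3 h and -0.14 at 12 h, with the signs of Klf2 at those times, and 0.28 in the treated arrays, where Klf2 was below 0. Foxo4, also on this list, was -0.57 in the treated arrays (SE 0.21, adjusted p = 0.793 by limma), with the sign of Klf2. Of the 10 measured genes, 6 were below 0 and 4 above it in the treated arrays. Of the 8 genes of the MEK5, ERK5 and MEF2 pathway, 5 were measured, with medians of 0.066 in the treated arrays and -0.025, -0.020, 0.005 and -0.034 at the times. Mapk7, which encodes ERK5, was -0.46 in the treated arrays (SE 0.25, adjusted p = 0.807 by limma) and -0.16 at 7 h.

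Of 19 immediate early genes, the class in which Klf6 is often placed, 12 were measured. Their median was -0.072 in the treated arrays, -0.13 at 3 h (9 below 0), -0.068 at 7 h (11 below 0), -0.057 at 12 h (9 below 0) and -0.013 at 23 h (6 below 0), against a median of 0.002 over all features at 12 h. At 3 h, Fosl1 and Jun, components of AP-1, were -0.18 and -0.17 (adjusted p = 0.425 by limma for each). Ier3, a stress-induced survival gene, was -0.59 in the treated arrays and -0.52 at 12 h (adjusted p = 0.792 and 0.769 by limma). At 3 h, 7 h and 23 h it was -0.61, -0.34 and -0.28, so its lowest time was 3 h. Nr4a1, an orphan nuclear receptor, was 0.65 in the treated arrays. Of 15 partners and cofactors 9 were measured, with medians of 0.042, 0.074, 0.068, -0.033 and -0.032 in the treated arrays and at 3 h, 7 h, 12 h and 23 h. Crebbp, which encodes CBP, was -0.46 in the treated arrays and 0.16 at 12 h (adjusted p = 0.807 and 0.792 by limma).

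Markers of blood cell types and of pluripotent cells were read beside the members. Neutrophil markers had 9 of 10 measured and 8 of 9 below 0 at each time, with medians of -0.14 at 3 h and at 7 h, -0.37 at 12 h and -0.32 at 23 h. Over all features, 48.9% to 50.5% were below 0 at these times. The same 9 genes are counted at each time, so the 4 counts are not independent. At 12 h the neutrophil markers ran from -0.59 to 0.11, and S100a8 was -0.52 (adjusted p = 0.689 by limma). The 3 measured markers of mast cells and basophils were all below 0 at 12 h (median -0.205), among them Mcpt8 at -0.61 (SE 0.18, adjusted p = 0.611 by limma). The 3 of monocytes were below 0 there too, but their median was only -0.020. Lyz2 was -0.73, while Cd68 and Mrc1 were -0.018 and -0.020. At 12 h the medians of the erythroid (3 of 6 measured), megakaryocyte (5 of 8), lymphoid (2 of 8) and pluripotent (4 of 5) markers were 0.071, -0.035, 0.048 and -0.002. In the treated arrays the medians were -0.11 for neutrophil, -0.34 for monocyte, -0.086 for mast cell, -0.14 for erythroid, 0.13 for megakaryocyte, -0.090 for lymphoid and -0.022 for pluripotent markers. No marker was called, and their part in the Klf6 and Klf2 values was not tested.

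Across arrays, the members did not follow each other closely. With the dye term removed, Spearman's rho over 19 arrays was 0.37 between Klf1 and Klf2, 0.14 between Klf2 and Klf6 and -0.07 between Klf1 and Klf6. The named genes most like each member were ranked by the same measure among 9734 genes, as a description only, since the points share arrays, references and dyes. For Klf6 they were Anxa3 (annexin A3, 0.92), Fchsd1 (0.82), Cyp2d12 (0.80), Sqstm1 (the autophagy receptor p62, 0.78) and Tpsb2 (a mast cell tryptase, 0.77 over 18 arrays). Anxa3 was -0.24, -0.19, -0.19 and -0.60 at 12 h, below 0 on all 4 arrays and lowest on replicate 4, the array on which probe 421 of Klf6 was lowest. It was 0.34 on 23 h replicate 3, its highest time course array, and its likeness to Klf6 was 0.90 over the time course arrays alone.

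**Figure D4:**
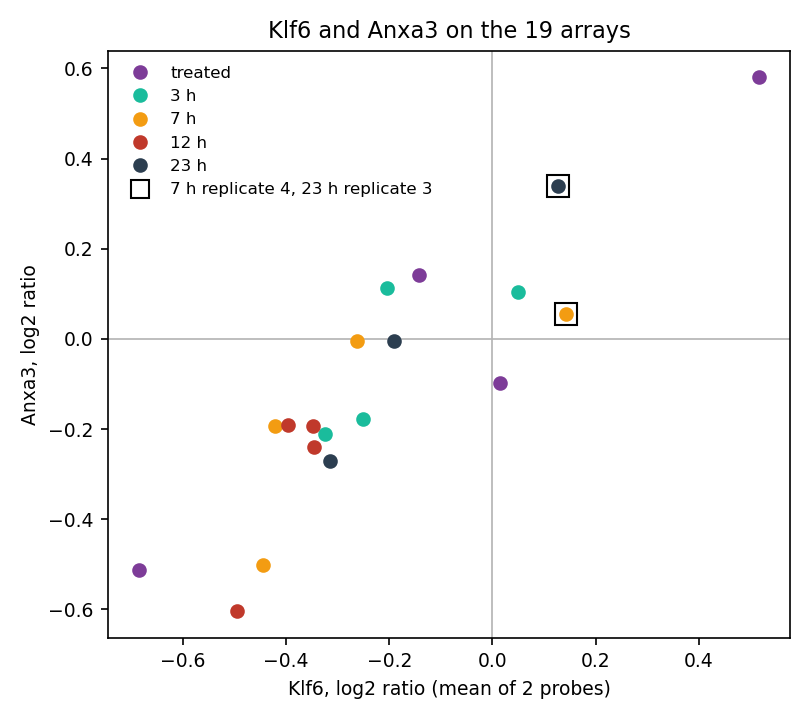
Log2 ratio of Anxa3 (vertical axis) against that of Klf6 (horizontal axis), 1 point for each of 19 arrays, coloured by group, with squares around 7 h replicate 4 and 23 h replicate 3. The 12 h arrays lie below 0 on both axes, and the rank correlation with the dye term removed is 0.92.

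For Klf2 the closest were Sugct (0.89), Myoz1 (a protein of the muscle Z-disc, 0.87), Isg20 (an interferon-stimulated exonuclease, 0.82), Xylt2 (0.81) and Dnaja3 (a mitochondrial co-chaperone, 0.81). Sugct had means of 0.15 ± 0.062 at 3 h and -0.17 ± 0.12 at 12 h (SD, n = 4 each) and was, like Klf2, above 0 on every 3 h array and below 0 on every 12 h array. For Klf1 the likeness was lower, with Mindy4 (0.75), Nrep (0.72 over 18 arrays), Atf3 (a stress-induced transcription factor, 0.72), Rab35 (0.72) and Col25a1 (0.71). Mindy4 had a mean of -0.84 ± 0.63 (SD, n = 4) in the treated arrays. Over the time course arrays alone, the likeness of these 5 genes to Klf1 was 0.55 to 0.70. With the dye term kept over all arrays, it was 0.57 for Mindy4, 0.80 for Nrep, 0.67 for Atf3, 0.43 for Rab35 and 0.16 for Col25a1. For the genes named for Klf2 and Klf6, the values with the dye term kept were 0.74 to 0.85 and 0.62 to 0.89.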

How the data were processed

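Labelled cDNA of treated cells and of a reference was hybridised to 19 arrays of 2 colours, per the labels' protocols. These also mention organs and pooled control animals, so channel labels decided each reference. Per probe, the authors deposited a log ratio, read here as log2. The sources used here state neither its base, its numerator nor its normalization. The values of 20088 to 20158 probes were present on time course arrays and of 19658 to 19841 on treated arrays. SD over spots was 0.619 to 0.642 on the treated arrays and 0.235 to 0.36 on the others. Spot signals were not used, and precision is limited by the number of arrays.

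Repeated extreme values (size at least 15) were set to missing, arrays were centred on their median and probes of 1 symbol were averaged; 13891 probes had 1 symbol in the platform annotation, and all 4 Klf probes matched RefSeq by gene ID. A feature needed values on 3 of 4 or 2 of 3 arrays. All 3 members passed in each comparison. limma 3.58.1 (R 4.3.3; lmFit, eBayes) was fitted with a dye term to the treated arrays alone, because their reference differs, and jointly to the 15 time course arrays. p-values were adjusted by Benjamini-Hochberg over all features, with a threshold of 0.05. The members and gene lists were chosen with earlier results of these data known. Named genes were the members, the other measured Klf genes, up to 2 genes of each list with the smallest p in the comparison described, and the 5 genes most like each member (values on at least 17 arrays). Replicate numbers were checked for pairing: the deviations of 21 same-numbered pairs of time course arrays correlated between -0.11 and 0.19, and 3 pairs were over 0.1, so the numbers were not taken as pairs. The fits were tested on simulated data.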

Additional observations from a re-analysis of the deposited data

Results flagged for a closer look

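Within groups of 4 arrays, the highest or lowest value was set against the others by Dixon's criterion, which chance meets in about 1 group in 20. Of 27 groups checked, over genes and probes, 4 met it. Klf1 and Klf2 each count both as a gene and as their only probe, and the Klf6 gene is the mean of its 2 probes. The groups are therefore not independent, and their count cannot be set against the chance rate. Klf1 at 3 h had a low value of -0.177 on replicate 2, with the gap to its neighbour making up 0.848 of the group's range. Probe 421 of Klf6 at 12 h was lowest on replicate 4, at -0.827 (0.852 of the range), and probe 1985 at 12 h was lowest on replicate 2, at -0.224 (0.889 of the range). All 3 lie within groups whose range is small beside that of the treated arrays.

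Under the deposited signs, Klf2 (probe 16777) read above 0 on every 3 h array and below 0 on every 12 h array. On 3 h replicate 4 it was barely above 0, at 0.003. The difference of -0.285 was tested as a contrast and had adjusted p = 0.44 by limma. The value was below 0 under every alternative run, from -0.33 without 3 h replicate 4 to -0.06 with the Cy3 signs changed, and passed the threshold under none, with adjusted p between 0.202 and 0.96.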

How the results depend on the processing

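The direction of the ratios limits most of what is said here, and the small number of arrays the rest. On simulated data, 0% of 100 features changed by a log2 ratio of 1 and 53% of 100 changed by 2 were recovered in the treated arrays (15915 features), against 89% and 100% at 12 h (16083 features). Among features left unchanged, 2 were called in the treated arrays and 9 at 12 h. The simulated noise was independent between arrays. Changes as small as those of the members in the time course were not simulated, so their recovery is not known. The settings named in this paragraph are those that moved a value past the threshold, turned its sign or moved a count by over 1.5 times; causes were not tested unless the setting itself shows them.

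Changing the Cy3 signs turned the sign of 22 of 43 ratios. At 3 h it gave -0.11 for Klf1, 0.11 for Klf6, 0.020 for probe 421 and 0.19 for probe 1985. Probe 1985 came to -0.080 in the treated arrays, 0.016 at 7 h and 0.13 at 23 h, and Klf1 to 0.034 at 23 h. At 12 h the values were -0.091 for Klf1, 0.014 for Klf2, 0.026 for Klf6 and 0.069 for probe 421. Among differences between times, 12 h minus 7 h became 0.055 for Klf2 and 0.12 for Klf6, and 12 h minus 3 h became 0.015 for Klf1. The 23 h minus 12 h values became 0.13, -0.099 and -0.19 for Klf1, Klf2 and Klf6. The 23 h minus 7 h values became -0.044 for Klf2 and -0.073 for Klf6, and 23 h minus 3 h became 0.14 for Klf1 and -0.27 for Klf6.

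Without 7 h replicate 4 and 23 h replicate 3, the counts of features called were 16, 75, 43 and 59 at 3 h, 7 h, 12 h and 23 h. Klf6 was then -0.39 at 7 h and -0.40 at 12 h and passed the test (adjusted p = 0.0487 and 0.0257 by limma). No 12 h array was left out, and the 12 h estimate of Klf6 did not change while its SE fell. Signs changed for 7 h minus 3 h of Klf1 (-0.018), 23 h minus 7 h of Klf2 (-0.069) and 23 h minus 3 h of Klf6 (-0.071). With the signs of these arrays turned, the counts were 33, 203, 61 and 129, and Klf6 was called at 7 h (-0.32) and 12 h (-0.40). Klf1 became -0.014 at 7 h and 0.0046 at 23 h, and probe 1985 became 0.051 at 23 h. The differences of Klf1 became -0.12 (7 h minus 3 h), 0.079 (12 h minus 7 h) and 0.018 (23 h minus 7 h). Klf2 became -0.11 for 23 h minus 7 h and Klf6 -0.023 for 23 h minus 3 h.

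In 1 fit of all 19 arrays 773 features were called in the treated arrays, and Klf2 was called at -0.32. The 12 h count of 3 became 9 with array weights, 0 with the repeated extreme values kept, 0 with complete features only and 5 with each probe on its own. Without centring, Klf1 and Klf2 at 23 h were 0.010 and 0.045, and quantile normalization made 7 h minus 3 h of Klf1 -0.0047.

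Leaving out 1 replicate at a time moved the number of called features between 0 and 13 at 7 h (13 without replicate 4), 5 and 10 at 12 h and 0 and 1 at 23 h. No member passed the test in these fits; Klf6 lay between -0.38 and -0.17 at 7 h and between -0.42 and -0.35 at 12 h. Signs changed for Klf6 in the treated arrays (-0.37 to 0.23), Klf2 at 23 h (-0.12 to 0.050) and probe 421 at 23 h (-0.45 to 0.098). They also changed for Klf1 in 7 h minus 3 h (-0.063 to 0.18), 12 h minus 7 h (-0.21 to 0.017) and 12 h minus 3 h (-0.13 to 0.0046). The same held for Klf6 in 7 h minus 3 h (-0.20 to 0.027), 23 h minus 7 h (-0.0063 to 0.26) and 23 h minus 3 h (-0.071 to 0.16), and for Klf2 in 23 h minus 7 h (-0.071 to 0.10).

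With the replicate number as a block in the time course, no call changed: the counts were 0, 0, 3 and 0, and Klf6 at 12 h was -0.40 with adjusted p = 0.717 by limma. In the treated fit each number occurs once, and no paired analysis was possible because of that.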
